A study of Mus musculus with 2 samples.

Results

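The genes described here make, use and recycle glutathione or remove superoxide and peroxides, together with NRF2 and KEAP1, which control many of them. Earlier results of these data were known when the set was chosen, but the rule itself used names and no measured value. It took every numbered Gsta, Gstm, Gstp, Gstt, Gstz, Gsto, Gstk, Mgst, Prdx or Gpx gene on the array, and Gclc, Gclm, Gss, Gsr, Ggt1, Nqo1, Hmox1, Txnrd1, Srxn1, Nfe2l2, Keap1, Sod1, Sod2 and Sod3. This gave 54 of the 31821 gene names with a probe. Of these, 51 were measured, which means that at least 1 genotype gave the gene's brightest probe a signal well above background on array 1 and on array 2, as it did for 19707 genes in all. Gpx5 and Gstt4 were not well above background and have no ratio here.

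RNA came from kidneys of 2-month-old mice, either Cnnm2fl/fl;Six2-Cre (knockout) or Cnnm2+/+;Six2-Cre (control). Both genotypes carried Six2-Cre, a transgene with a GFP-tagged Cre recombinase that is active in the developing kidney, so the controls share the Cre and differ in the Cnnm2 allele. The Six2 lineage gives rise to the nephron epithelium and not to the collecting duct, vessels or immune cells. The RNA was labeled with Cy3 and Cy5 and hybridized to 2 arrays with the dyes exchanged: the knockout carried Cy5 on array 1 and Cy3 on array 2. How many mice were used, and whether both arrays held the same RNA, are not given in the sources used here. Each genotype thus counts as 1 replicate here, which leaves no test between knockout and control. Every SD of 2 arrays below is the spread between the arrays. In it the dye and any difference between RNA preparations cannot be told apart, and it does not measure the spread between animals.

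Glutathione is a tripeptide whose synthesis starts with glutamate-cysteine ligase (a catalytic subunit, GCLC, and a modifier subunit, GCLM) and ends with glutathione synthetase (GSS). Glutathione S-transferases (GSTs) join it to reactive compounds, glutathione peroxidases spend it to reduce peroxides, and glutathione reductase (GSR) restores it. The transcription factor NRF2 (gene Nfe2l2) is held in check by KEAP1 and, when released by oxidants or electrophiles, binds antioxidant response elements near genes such as Nqo1, Gclm and several GSTs. In the kidney the proximal tubule is rich in glutathione enzymes, and alpha GSTs are well-known proteins of that segment.

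The values below turn on Gsta1 and Gsta2, so their probes are shown first. Each array probe is a 60-base DNA oligomer, and a GST family member can be read by the probe of a close relative. The Gsta1 probe lies at chr9:78090411-78090470 and the Gsta2 probe at chr9:78178856-78178915 (mouse build mm9, positions as the array files give them). Slid against each other without gaps, the probes overlapped by 50 bases, of which 46 were equal and 4 differed. The 30 bases of that overlap with the most differences read as follows, with the differing bases in capitals.
Gsta1: tggcctctaatGgtttgcaattataaaaAG
Gsta2: tggcctctaatTgtttgcaattataaaaTA
Between these genes lies Gm10639, a predicted gene that the rule does not name, with its probe at chr9:78153243-78153302. The Gm10639 probe was 3 edits away from the whole Gsta2 probe, and 4 edits away from the 50 bases in which the Gsta1 probe overlaps that of Gsta2. An edit can also be a base inserted or left out. Slid without gaps, the Gm10639 probe differed at 7 of 60 bases from the Gsta2 probe and at 9 of 50 from the Gsta1 probe. How far transcripts of Gsta1, Gsta2 and Gm10639 are read by one another's probes was not tested, and the 3 ratios cannot be counted as independent measurements. Among the 51 measured genes, Gsta1, Gsta2 and Sod1 were those whose probe matched a probe of another gene name over at least 40 bases with at least 80% of the bases equal.

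Values are log2 processed signals, and a ratio is knockout minus control on the log2 scale, so that -1 is a 2-fold lower signal in knockout. A gene was called higher or lower only when both arrays gave the same direction and the mean of the 2 ratios passed a fold threshold. By this rule 0 of the 51 genes were at least 2-fold higher and 0 were at least 2-fold lower in knockout kidneys, where the shares over all measured genes were 0.315% and 0.284%. At a 1.5-fold threshold the counts were again 0 and 0, against 1% and 1.06% of all genes. These shares would give about 1 gene in a set of 51, so the absence of calls is close to the background. The median of the mean ratios was -0.043, with quartiles of -0.11 and 0.042, against -0.0081 over all genes. Of the 51 genes, 44 (86.3%) had a mean within 0.2 of zero, as had 78.7% of all genes. The set was brighter, with a median log2 signal of 13.05 against 9.07 over all genes. Of the 4713 genes between the set's signal quartiles, 89.6% had a mean within 0.2 of zero, and their median was 0.00035. Beside genes of like brightness the set was thus not closer to zero. The signal of a whole kidney does not tell fewer cells of a type from less RNA per cell.

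**Figure D1:**
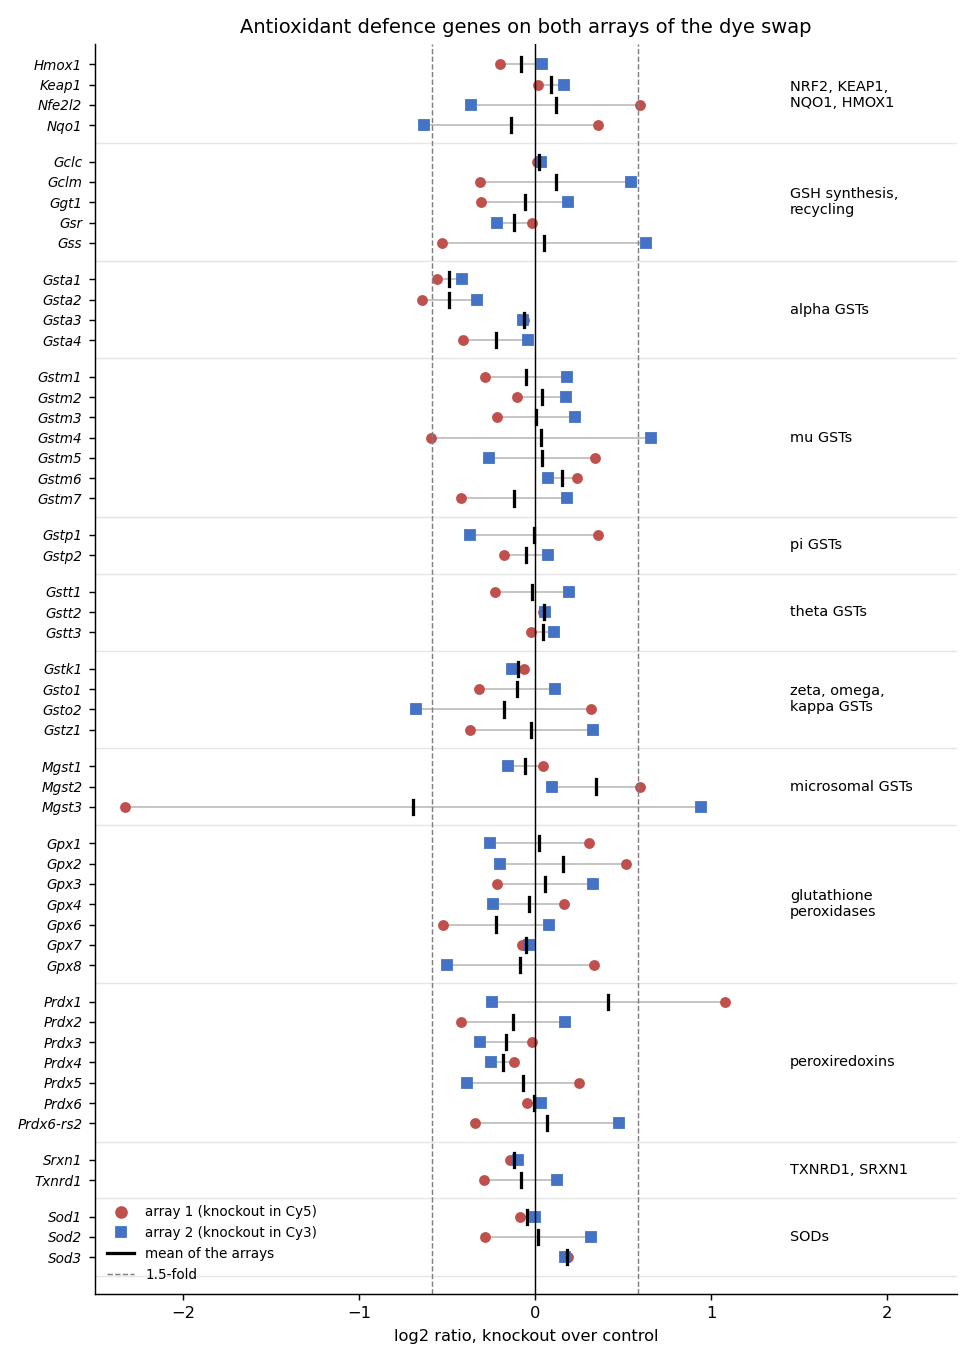
Log2 ratio of knockout over control (x axis) for each of the 51 measured genes, grouped by role, on array 1 (circles) and array 2 (squares), with the mean as a black bar and the 1.5-fold lines dashed. Most lines cross zero, and the alpha GSTs are the only group in which every point lies to the left of it.

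Without regard to size, 6 genes (11.8%) were higher on both arrays and 10 (19.6%) were lower on both, where the shares over all genes were 12.1% and 15.6%. The 6 were Gclc, Gstm6, Gstt2, Keap1, Mgst2 and Sod3. The 10 were Gpx7, Gsr, Gsta1, Gsta2, Gsta3, Gsta4, Gstk1, Prdx3, Prdx4 and Srxn1. The other 35 genes had opposite signs on the 2 arrays. The dye contrast (the ratio of array 1 minus that of array 2, divided by 2, in which a genotype difference cancels) exceeds the mean ratio in size whenever the signs differ, and so did for these 35 genes (68.6%) and for 72.3% of all genes. Among the genes between the set's signal quartiles the share was 75.5%. Over genes, which do not replicate one another, the ratios of array 1 and array 2 had a Pearson correlation of -0.65 for the 51 genes and -0.51 for all 19707, although each had been turned to knockout over control. The deleted gene itself did not follow this pattern: Cnnm2 had ratios of -2.88 and -2.46, with a mean of -2.67 ± 0.30 (SD of 2 arrays). For a gene whose ratio changes sign between the arrays, the dye and a difference between RNA preparations cannot be told apart here.

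**Figure D2:**
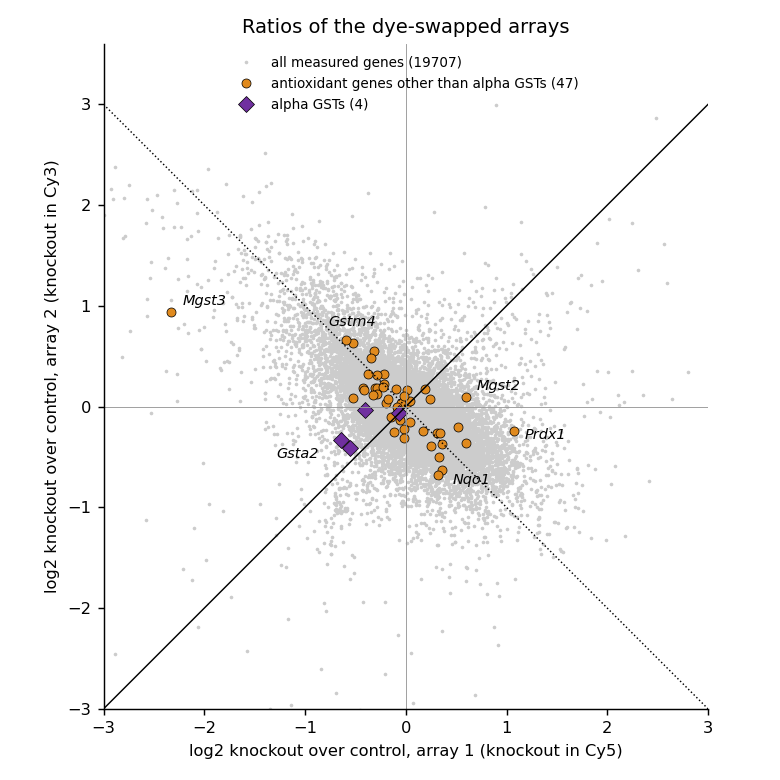
Log2 knockout over control on array 1 (x axis) against array 2 (y axis) for all 19707 measured genes (grey), the 47 genes other than alpha GSTs (orange) and the 4 alpha GSTs (purple); 25 genes of the background lie outside the axes. A genotype difference lies along the solid diagonal and a channel difference along the dotted one, where most of the cloud and genes such as Mgst3 and Gstm4 sit.

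The alpha GSTs conjugate glutathione to electrophiles and reduce lipid hydroperoxides. All 4 were lower on both arrays, and Gsta1 and Gsta2 were lowest, each by 1.40-fold in the mean. Gsta1 read 11.70 in control and 11.14 in knockout on array 1, and 11.13 and 10.71 on array 2. Its ratios were -0.56 and -0.41, a mean of -0.49 ± 0.10 (SD of 2 arrays). Gsta2 read 15.59 in control and 14.94 in knockout on array 1, and 15.01 and 14.68 on array 2, with ratios of -0.64 and -0.33 and a mean of -0.49 ± 0.22. For both genes each knockout signal lay below the control signal of its own array. Across arrays the signals of the genotypes did not overlap for Gsta2, whereas for Gsta1 the higher knockout signal reached that of the lower control. With 2 signals per genotype this is a weak description, and how many of all genes show no overlap was not counted. All of the dye contrasts in the group were smaller than the means, which follows from the shared sign and adds nothing to it. Among all 19707 genes, 290 (1.47%) were lower on both arrays with a mean at or below that of Gsta2. Both fell short of 1.5-fold, a size of 0.58 on this scale.

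Gsta4, which acts on the lipid peroxidation product 4-hydroxynonenal, was the dimmest of the 4 genes and was printed in 10 spots on each array. It read 8.82 in control and 8.41 in knockout on array 1, a ratio of -0.41, and 8.42 and 8.38 on array 2, a ratio of -0.038. The SD between its 10 spots was 0.032 on array 1 and 0.16 on array 2, so the second ratio lay within the spread of the spots. Gsta3, on chromosome 1, had ratios of -0.063 and -0.067, from 14.38 in control and 14.32 in knockout on array 1 and 14.11 and 14.04 on array 2. Its mean of -0.065 was the smallest of the group.

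Gsta4, Gsta1 and Gsta2 lie side by side on chromosome 9, with 44.2 kb between the Gsta4 and Gsta1 probes and 88.4 kb between those of Gsta1 and Gsta2. Gm10639, between the latter, read 14.85 in control and 14.28 in knockout on array 1 and 14.40 and 14.02 on array 2. Its ratios of -0.57 and -0.37, with a mean of -0.47 ± 0.14, were like those of its neighbours, from a probe that is nearly that of Gsta2. Gclc lies 405 kb from Gsta4 on the same chromosome and had ratios of 0.013 and 0.035. Of the 6 measured genes in the 538 kb from Gclc to Gsta2 that are not in the set, Gm10639 was lower on both arrays. The other 5 (D9Wsu90e, Elovl5, Fbxo9, Ick and C920006O11Rik) had opposite signs on the arrays, and their means ran from -0.31 to 0.13.

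**Figure D3:**
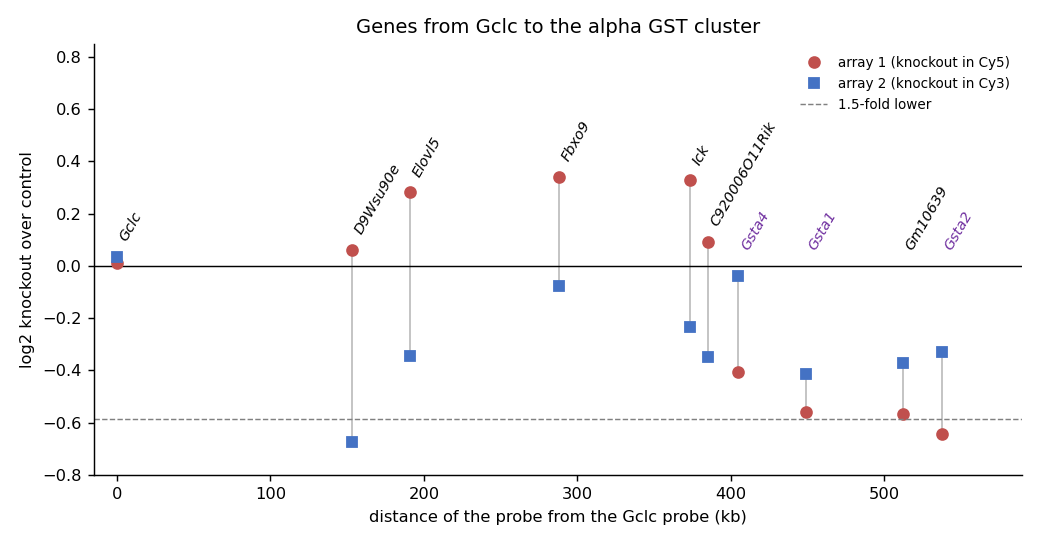
Log2 knockout over control on both arrays (y axis) for every measured gene from Gclc to Gsta2, by the distance of its probe from the Gclc probe in kb (x axis). Gsta4, Gsta1, Gm10639 and Gsta2 lie below zero on both arrays, whereas Gclc lies at zero and the genes between straddle it.

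**Figure D4:**
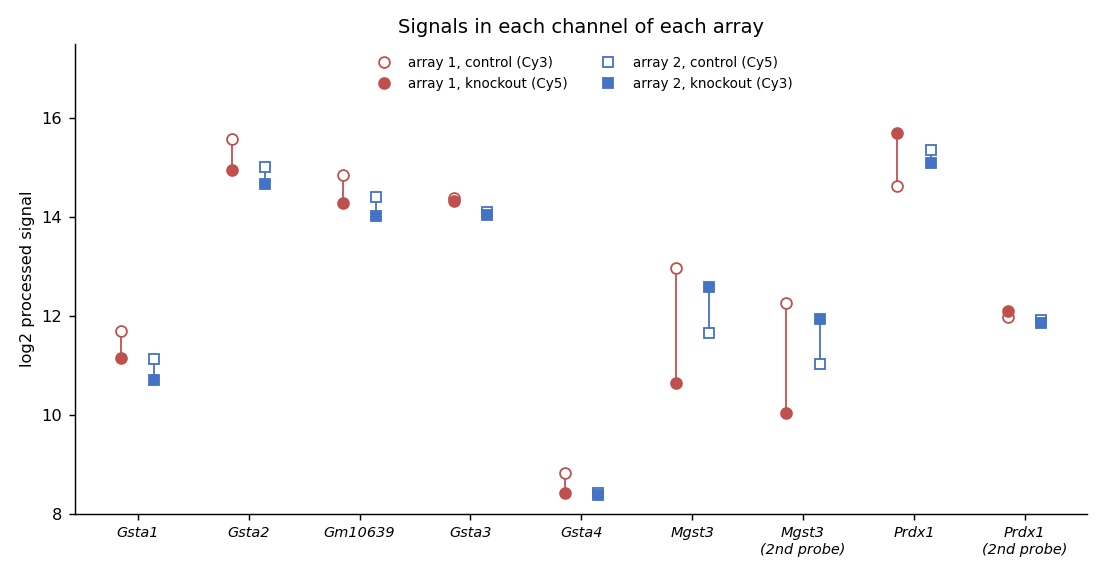
Log2 processed signal (y axis) in control (open) and knockout (filled) on array 1 (circles) and array 2 (squares) for the alpha GSTs, Gm10639, and both probes of Mgst3 and Prdx1. For Gsta1, Gsta2 and Gm10639 the knockout point is under the control point on each array, whereas for Mgst3 the order turns between the arrays.

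NRF2 and KEAP1 themselves showed no difference that held on both arrays at a size above the spread. Nfe2l2 read 12.20 in control and 12.79 in knockout on array 1, and 12.43 and 12.07 on array 2. Its ratios of 0.60 and -0.36 averaged 0.12 ± 0.68. Keap1, the adaptor that marks NRF2 for degradation, read 11.56 and 11.58 on array 1 and 11.37 and 11.54 on array 2 (control first), with a mean of 0.090 ± 0.11. Keap1 was nominally higher on both arrays, by less than the SD of the arrays.

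NQO1, a quinone reductase, and HMOX1, the inducible heme oxygenase, are standard readouts of NRF2 and of oxidant stress. Nqo1 read 11.08 in control and 11.44 in knockout on array 1, and 11.31 and 10.69 on array 2. Its ratios of 0.36 and -0.63 averaged -0.14 ± 0.70. Hmox1 read 11.59 and 11.39 on array 1 and 11.29 and 11.32 on array 2 (mean ratio -0.080 ± 0.17). A dimmer second Hmox1 probe averaged 0.16, the other way. Neither gene had the same sign on both arrays.

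Of the 5 genes of glutathione synthesis and recycling, Gclc was nearly equal in all 4 channels, at 13.66 in control and 13.67 in knockout on array 1 and 13.56 and 13.60 on array 2. Its mean was 0.024 ± 0.016. Gclm read 11.28 in control and 10.96 in knockout on array 1 but 10.79 and 11.34 on array 2, a mean of 0.12 ± 0.61. The subunits of glutamate-cysteine ligase thus differed in how far their arrays lay apart, not in a call. Gss was similar to Gclm, with ratios of -0.53 and 0.63. Gsr, which regenerates glutathione with NADPH, was lower on both arrays by a small amount: 14.30 in control and 14.28 in knockout on array 1, 14.18 and 13.96 on array 2 (mean ratio -0.12 ± 0.14). Its second probe averaged -0.18 and had the same sign. Ggt1, the brush-border enzyme that starts the breakdown of extracellular glutathione, had ratios of -0.30 and 0.19.

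The 7 mu GSTs had means from -0.12 (Gstm7) to 0.16 (Gstm6), and 1 of them had the same sign on both arrays. Gstm6 read 8.10 in control and 8.34 in knockout on array 1 and 7.97 and 8.04 on array 2 (mean ratio 0.16 ± 0.12), and its other 2 probes also averaged above zero, at 0.037 and 0.11. Gstm7 read 7.71 and 7.29 on array 1 and 7.51 and 7.69 on array 2 (mean ratio -0.12 ± 0.43). Gstm6 was the mu gene whose probes all lay on one side on both arrays. Gstm3 was the nearest to zero, with 11.71 and 11.50 on array 1, 11.54 and 11.77 on array 2, and a mean of 0.0065 ± 0.32. Gstm4 had the widest spread of the family, at -0.59 and 0.66. The brightest Gstm1 probe is placed on chromosome 5 by the array files, away from the other 6 mu probes, which lie within 146 kb of chromosome 3. Its second probe lies on chromosome 3, and the probes averaged -0.051 and -0.062.

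The pi GSTs, abundant cytosolic enzymes, had opposite signs on the arrays. Gstp1 read 13.69 in control and 14.05 in knockout on array 1 and 13.83 and 13.46 on array 2 (mean ratio -0.0070 ± 0.51). Gstp2 read 15.85 and 15.67 on array 1 and 15.36 and 15.43 on array 2 (mean ratio -0.052 ± 0.18). The 3 measured theta GSTs were also near zero. Gstt2 read 13.15 in control and 13.19 in knockout on array 1 and 13.03 and 13.09 on array 2 (mean ratio 0.050 ± 0.010), the only theta gene with the same sign on both arrays. Gstt3 read 13.29 and 13.26, then 12.98 and 13.08, a mean of 0.043 ± 0.092. Gstt1 read 15.06 and 14.83, then 14.53 and 14.73, a mean of -0.018 ± 0.30. A dimmer probe under another name, described as theta-1, had ratios of -0.21 and -0.085. A Gstt2 mean of 0.050 is a 1.04-fold difference, small beside the array-to-array spread of most genes of the set.

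Of the zeta, omega and kappa GSTs, Gstk1, a mitochondrial and peroxisomal enzyme, was lower on both arrays, with ratios of -0.062 and -0.13. Gsto2 had the largest mean, -0.18 ± 0.70, from 7.16 in control and 7.48 in knockout on array 1 and 7.44 and 6.76 on array 2. Gsto1 read 13.08 and 12.76 on array 1 and 12.57 and 12.69 on array 2 (mean ratio -0.10 ± 0.31). Both omega genes, whose products also reduce dehydroascorbate, turned sign between the arrays. Gstz1, which acts in tyrosine breakdown, read 14.97 and 14.60, then 14.39 and 14.72, with a mean of -0.021 ± 0.49.

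Among the microsomal GSTs, Mgst3 had the lowest mean of all 51 genes and is not a call, because its arrays disagreed. It read 12.96 in control and 10.64 in knockout on array 1 but 11.65 and 12.59 on array 2, so that its ratios were -2.33 and 0.94, the mean -0.69 ± 2.31 and the dye contrast -1.63. Its second probe gave almost the same values, with ratios of -2.22 and 0.92. The 2 probes of Mgst3 thus repeated the turn of sign, and for this gene too the dye and the RNA preparations cannot be told apart. Mgst2, an enzyme related to leukotriene C4 synthase, was dim but higher on both arrays, at 5.05 in control and 5.65 in knockout on array 1 and 4.96 and 5.06 on array 2. Its ratios were 0.59 and 0.096 and its mean 0.34 ± 0.35, a 1.27-fold difference that no second probe covers. The size of this mean moved with the processing of the signals: it was 0.071 under normexp followed by loess, 0.15 under loess alone and 0.40 from background-subtracted signals. Mgst1, which responds to thiol oxidation, read 12.88 and 12.92 on array 1 and 12.73 and 12.58 on array 2 (mean ratio -0.055 ± 0.14).

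The selenium-dependent and related glutathione peroxidases reduce hydrogen peroxide and lipid peroxides. Of the 7 measured, means ran from -0.22 for Gpx6 to 0.16 for Gpx2, and Gpx7 was the one with the same sign on both arrays (-0.076 and -0.032). Gpx6 read 11.04 in control and 10.52 in knockout on array 1 and 10.79 and 10.87 on array 2 (mean ratio -0.22 ± 0.43). Gpx2, close to background, read 3.85 and 4.37, then 4.41 and 4.21, with a mean of 0.16 ± 0.51. The family showed no common direction. Gpx1, the main cytosolic enzyme, read 17.05 and 17.36, then 17.03 and 16.77, a mean of 0.024 ± 0.40. Gpx3, the plasma enzyme that the proximal tubule secretes, had ratios of -0.21 and 0.33, and Gpx4, which protects membranes from ferroptosis, 0.17 and -0.24.

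Peroxiredoxins reduce peroxides through thioredoxin. Prdx1 had the highest mean of all 51 genes, again from one array: it read 14.62 in control and 15.70 in knockout on array 1, and 15.35 and 15.10 on array 2, with ratios of 1.08 and -0.25 and a mean of 0.42 ± 0.93. Its second probe had ratios of 0.12 and -0.045 and a mean of 0.037. The 2 Prdx1 probes thus differed by 0.38 in their means, and the second showed no difference beyond its spread. Prdx4, of the endoplasmic reticulum, was lower on both arrays, at 10.75 and 10.63 on array 1 and 10.32 and 10.07 on array 2 (control first), with a mean of -0.18 ± 0.091. Prdx3, of mitochondria, was also lower on both, at -0.015 and -0.31. Prdx6 was nearest to zero, at 14.88 and 14.84, then 14.44 and 14.48, a mean of -0.0085 ± 0.056. Its 4 probes had means from -0.53 for a dim probe to 0.087. Prdx2, Prdx5 and Prdx6-rs2 turned sign between the arrays. Probes under other names are described as peroxiredoxins 4 and 5. The first, dimmer than the Prdx4 probe, had ratios of 0.071 and -0.054. The second, brighter than the Prdx5 probe, had ratios of -0.10 and -0.036.

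SRXN1 restores overoxidized peroxiredoxins and TXNRD1 keeps cytosolic thioredoxin reduced, and both are well-known NRF2 targets. Srxn1 was lower on both arrays by 1.09-fold in the mean, from 13.12 in control and 12.97 in knockout on array 1 and 12.80 and 12.70 on array 2, a mean of -0.12 ± 0.032. Txnrd1 read 13.33 and 13.04 on array 1 and 12.86 and 12.98 on array 2, a mean of -0.082 ± 0.29. Of the superoxide dismutases, the extracellular Sod3 was higher on both arrays by 1.13-fold. It read 14.90 in control and 15.08 in knockout on array 1 and 14.88 and 15.05 on array 2, with ratios of 0.19 and 0.17 and a mean of 0.18 ± 0.012. Both knockout signals lay above both control signals, which again was not set against all genes. Sod1, the cytosolic enzyme, read 16.51 and 16.43, then 16.12 and 16.12, a mean of -0.043 ± 0.062. Sod2, the mitochondrial enzyme, read 16.15 and 15.87, then 15.56 and 15.88, a mean of 0.017 ± 0.42.

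**Figure D5:**
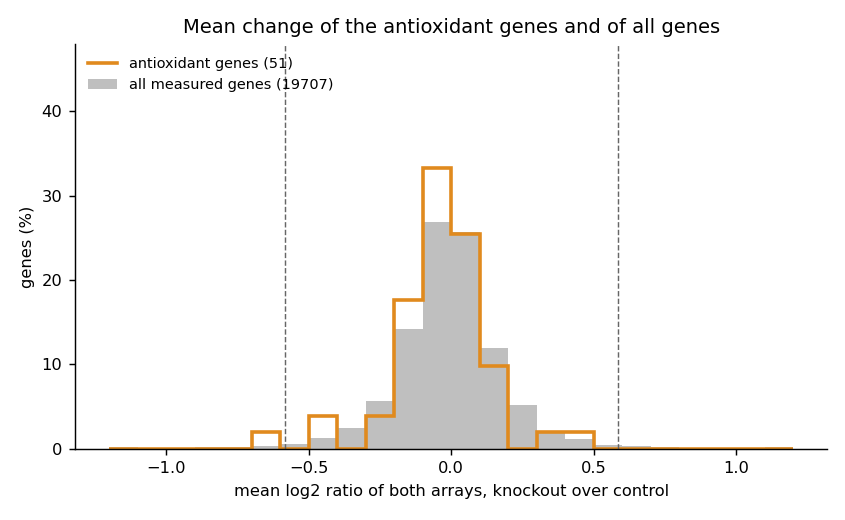
Share of genes in percent (y axis) by the mean log2 ratio of both arrays (x axis, bins of 0.1) for the 51 antioxidant genes (line) and all 19707 measured genes (bars); the 1.5-fold lines are dashed and the 71 genes with a mean beyond 1.2 are in the end bars. The set lies within the spread of all genes, and the gene to the left of the lower line is Mgst3, whose arrays had opposite signs.

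For 15 of the 51 genes at least 2 probes were measured. Their probe means had 1 sign in 10 genes and opposite signs in 5 (Gstm3, Gstp1, Gstp2, Hmox1 and Prdx6), and they lay within 0.2 of each other in 12. Gsta1, Gsta2 and Gsta4 have 1 probe each, so no second probe bears on them. The second probe of Gsta3 averaged -0.044 with opposite signs on the arrays. Another 7 probes, under other names, are described as proteins of the set and do not enter these counts.

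Promoters were compared because NRF2 acts through the antioxidant response element. The windows were 250 bases before to 50 after each RefSeq start site (build GRCm38.p6), of which 45 of the 54 genes had one. The core TGACNNNGC, searched on both strands, was present for 11 of the 45 genes (24.4%) and for 14.0% of all 27025 genes. The looser TGANNNNGC, which every core match also fulfils, was present for 24 of the 45 (53.3%) and for 45.0% of all genes. The 11 genes with a core match had a median mean ratio of -0.055 and the 32 measured genes without one a median of -0.043. A match describes letters only, and the lack of one bears only on the window. Gclc, Gsr, Gsta4 and Hmox1 were among the genes without a window, and the window of Nqo1 held no match of either form. The core matches of 4 genes for which NRF2 or peroxide defence is a well-known theme are shown with 10 bases to each side, on the strand of the gene and with the match in capitals: Gclm (chr3:122245413-122245441), Prdx1 (chr4:116685456-116685484), Txnrd1 (chr10:82859104-82859132) and Nfe2l2 (chr2:75704885-75704913, minus strand). In the first 3 the match is on the opposite strand, so the capitals show the reverse complement of the core.
Gclm: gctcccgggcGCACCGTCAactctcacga
Prdx1: cagggaaagcGCTGAGTCAtcccccgtag
Txnrd1: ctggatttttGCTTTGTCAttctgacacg
Nfe2l2: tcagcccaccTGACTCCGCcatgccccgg
Their mean ratios were 0.12, 0.42, -0.082 and 0.12, and all 4 turned sign between the arrays. Of the other genes with a core match, Srxn1 (-0.15 and -0.099) and Gsta3 (-0.063 and -0.067) were lower on both arrays, and Ggt1, Gstm5, Gstm7, Mgst1 and Sod1 turned sign.

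Among the genes of the set that were lower on both arrays, Gsta1 and Gsta2 had the lowest means. Their windows held no match of the core, and that of Gsta1 held 1 match of the looser form. Sequence farther from their start sites was not searched, so a match there is not excluded. The windows of Gsta1 and Gsta2 were 74 edits apart over 300 bases, and each was 148 or 149 edits from that of Gsta3. The window of Gm10639 was 35 edits from that of Gsta1 and 99 from that of Gsta2. Windows of unrelated genes were not compared, and a link between these distances and the ratios was not tested. The 250 bases before the start sites are shown for Gsta1 (chr9:78230419-78230668, plus strand) and Gsta2 (chr9:78347146-78347395, minus strand), with the longest identical run, 29 bases, in capitals. The run starts 118 bases before the start site of Gsta1 and 121 bases before that of Gsta2.
Gsta1: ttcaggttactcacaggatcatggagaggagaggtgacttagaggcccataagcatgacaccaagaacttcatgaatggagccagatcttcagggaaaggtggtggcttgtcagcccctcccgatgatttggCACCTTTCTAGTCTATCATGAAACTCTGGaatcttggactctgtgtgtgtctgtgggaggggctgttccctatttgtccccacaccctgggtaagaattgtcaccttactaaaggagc
Gsta2: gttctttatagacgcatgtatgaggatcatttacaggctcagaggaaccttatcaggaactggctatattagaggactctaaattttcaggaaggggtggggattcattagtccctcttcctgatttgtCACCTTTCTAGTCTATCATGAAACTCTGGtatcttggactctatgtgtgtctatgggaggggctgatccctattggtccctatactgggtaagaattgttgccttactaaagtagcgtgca

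Other genes of the pathway were read from fixed lists of 103 genes, also chosen with earlier results known, of which 98 were measured. None was at least 1.5-fold higher and none at least 1.5-fold lower with the same sign on both arrays, and their median was -0.0073. Without regard to size, 9 (9.18%) were higher and 13 (13.3%) lower on both arrays, where all genes had 12.1% and 15.6%. The list of other NRF2 target genes held most of the lower ones: 9 of its 22 measured genes were lower on both arrays and 1 was higher, with a median of -0.074. The 9 were Aox1, Cbr3, Akr1c13, Abcc3, Abcc4, Osgin1, Ugt1a6a, Mt1 and Mt2, named here after their values were seen. The metallothioneins Mt1 and Mt2, which bind zinc and copper, had the lowest means of the list, -0.44 and -0.46, mostly from array 1 (-0.72 and -0.87, against -0.17 and -0.059 on array 2). Of the other lists, glutathione metabolism and cysteine supply had 3 of 19 genes higher and 2 lower on both arrays, NADPH supply 2 of 9 higher and 0 lower, and thioredoxins and glutaredoxins 1 of 13 higher and 0 lower. Oxidant sources had 0 of 14 higher and 2 lower, the other selenoproteins 2 of 10 higher and 0 lower, and NRF2 partners and regulators 0 of 11 in either direction.

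Markers of other cell types and of sex were read beside these values. The 11 proximal tubule markers were present, and 2 were higher and 1 was lower on both arrays, with a median of 0.14. Their summed signal was 489684 in control and 550788 in knockout on array 1, and 441808 and 424517 on array 2, the other way. Of 3 genes with a known female bias in mouse kidney, Slc7a12 (mean -0.98) and Prlr (mean -0.73) were lower on both arrays and Cyp4a14 was not. The summed signal of these 3 genes was 13699.6 in control and 13579 in knockout on array 1, and 12514 and 9140.0 on array 2. Cyp4a14 is much the brightest and makes up most of this sum, which therefore says little about the others. The ratios were -1.04 and -0.92 for Slc7a12, and -0.79 and -0.68 for Prlr. Of 5 male-biased genes, 2 were higher and 1 was lower on both arrays, and the 3 measured Y-linked genes had opposite signs on the arrays. Ddx3y and Eif2s3y read 9.81 to 10.58 on the log2 scale in both genotypes on both arrays, and Xist was not well above background. Per the methods of the study, its mice were of both sexes and were matched by age and sex. The sex of those behind these arrays is not given in the sources used here. Of the 3 distal tubule markers, Pvalb and Trpm6 were lower on both arrays (means of -1.75 and -1.40), and Slc12a3 turned sign (-0.78 and 0.19, a mean of -0.30). The 5 urothelium markers were higher on both arrays, with summed signals of 1762 and 1409 in control and 2447 and 2099.6 in knockout. Some markers of several other cell types were lower on both arrays, as the alpha GSTs and 15.6% of all genes were. The lists are short, and Slc4a1 is counted among both the intercalated and the red blood cell markers. The markers lower on both arrays were 3 of 5 of intercalated cells (median -0.18), 2 of 3 of podocytes (median -0.32), 2 of 3 of endothelium (median -0.21), 3 of 6 of red blood cells (median -0.20) and 2 of 4 of principal cells (median -0.075). The summed signal of the intercalated cell markers was 17262 in control and 14671 in knockout on array 1, and 14245 and 12275 on array 2. It was 11923 and 8426 and then 7527 and 7068 for podocytes, and 4254 and 3215 and then 3506 and 3421 for endothelium, in the same order. For red blood cells (277775 and 295044, then 248587 and 183187) and principal cells (27505 and 21990, then 20019 and 24866) the sums moved in opposite directions on the arrays. The thick ascending limb, macrophage and adipose lists each had 1 gene lower on both arrays and 0 higher, and those of hepatocytes and smooth muscle had 0 in either direction. The part of any of these in the alpha GST values was not tested.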

How the data were processed

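Total RNA of knockout and control kidneys was compared on 2 arrays (Agilent Mouse GE 4x44K V2) with exchanged dyes. The authors deposited the scanner output of each array, made with Agilent Feature Extraction 10.7.3.1 per the file headers (10.5.1.1 in the submitters' processing notes). The deposited intensity columns hold mean, background and background-subtracted signals, and a processed intensity that the software had corrected for background and dye. The deposited log10 ratios of the series matrix are knockout over control, and they were used as an alternative after conversion to log2.

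Here log2 processed intensities were subtracted, each ratio was turned to knockout over control by the dye labels, spots of a probe were averaged, and spots the software marked as outliers (141 and 175 of 43020 gene spots) were left out. No spot was saturated. The number of arrays limits the precision: over 382 repeatedly printed probes the log2 ratio had a median SD of 0.049 and 0.047 from spot to spot, and the spread between animals is unknown. The brightest probe stood for a gene name. Of the 3 genes of the set without a measured signal, 1 is not reported here by name. All measured genes were processed alike, and the set and lists were chosen with earlier results of these data known.

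Values were named by a rule: in each role group the 2 genes with the largest mean and the 1 with the smallest, and Nfe2l2, Keap1, Nqo1, Hmox1, Gclc, Gclm, Txnrd1 and Srxn1 always. Gsta4, Gpx3, Gstk1 and others were added for their role or sign. The lists covered glutathione metabolism and cysteine supply, thioredoxins and glutaredoxins, NADPH supply, other NRF2 targets, NRF2 partners and regulators, oxidant sources and selenoproteins. Alternatives were other background corrections and normalizations, filters, probes, single arrays and call rules. Probes were compared without gaps. The Gm10639 probe was also compared by edit distance, as were the promoter windows (edlib 1.3.9.post1), with promoter sequence from RefSeq. Python 3.11.15, numpy 2.4.6, pandas 2.3.3, scipy 1.17.1, R 4.3.3 and limma 3.58.1 were used, and the scripts were tested on simulated data.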

Additional observations from a re-analysis of the deposited data

How the results depend on the processing

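The counts of antioxidant genes at least 2-fold or 1.5-fold higher or lower stayed at 0 under every alternative that averaged the arrays: normexp with an offset of 50 and loess, background-subtracted signals with a floor of 1 and median centring, loess alone, the deposited ratios, no filter or a stricter filter on dim probes, marked spots kept, and the median over probes. Read from array 1 alone, 1 gene (Prdx1) was at least 2-fold higher and 1 (Mgst3) at least 2-fold lower, and at 1.5-fold 3 genes were higher (Mgst2, Nfe2l2 and Prdx1) and 3 lower (Gsta2, Gstm4 and Mgst3). Read from array 2 alone, 3 genes were at least 1.5-fold higher (Gss, Gstm4 and Mgst3) and 2 lower (Gsto2 and Nqo1), so that Mgst3 and Gstm4 changed sides. Of all 19707 genes, array 1 alone gave 385 higher and 472 lower at 2-fold, and 1812 and 1509 at 1.5-fold. Array 2 alone gave 1229 and 1317 at 1.5-fold. At 1.5-fold the shares of the set were below those of all genes on each array. The median over the set ran from -0.054 to -0.028 where arrays were averaged and was -0.087 on array 1 alone and 0.040 on array 2 alone. Genes with the same sign on both arrays numbered 12 to 18, and the mean ran from -0.49 to -0.43 for Gsta1 and from -0.51 to -0.49 for Gsta2. Of the 35 genes named by the rule, 28 kept 1 sign where arrays were averaged. The exceptions were Gpx1, Gstm3, Gsto2, Gstp1, Hmox1, Prdx6 and Sod2. With the methods' t-test, paired over the arrays, at an unadjusted threshold of 0.1, 4 of the 51 genes passed at any fold (Gsta1, Gsta3, Gstt2 and Sod3). So did 984 of all 19707 genes, and 0 genes of the set passed with a fold over 2. With 2 values per gene this test passes a small mean where the arrays nearly agree, as for Gsta3 (-0.065) and Gstt2 (0.050). With limma, 0 genes of the set passed at an adjusted p under 0.05 or an unadjusted p under 0.05, where 0 and 256 of all genes did. The methods' t-test and limma both take the 2 labelings as 2 replicates, so their counts do not bear on the spread between animals. Over animals, no paired analysis was possible because the dye swap counts as 1 replicate of each genotype.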
